A study of Mus musculus with 12 samples.

Results

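The genes described here encode the lysosome, the proton pump that acidifies it (the vacuolar ATPase, or V-ATPase) and the autophagy machinery that delivers cargo to it. They were taken by symbol from a list of 52 names. No threshold on expression or change was applied here, but the authors had filtered low counts from the table. Of the 52 names 51 had a row in the table of 11022 genes, and Atp6v0c was not analysed here. By role they comprise 16 V-ATPase genes, 8 cathepsins, 7 other lysosomal enzymes and saposin precursors, 7 proteins of the lysosomal membrane or of sterol export, the transcription factor gene Tfeb and 12 autophagy genes.

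Messenger RNA was sequenced from cytotoxic T lymphocytes (CTL) of the P14 strain, whose CD8 T cells carry 1 transgenic T cell receptor (TCR) specific for the gp33 peptide of lymphocytic choriomeningitis virus. Cells from lymph nodes or spleens of 3 female mice aged 9 to 13 weeks were activated for 48 h with peptide, interleukin 2 and interleukin 12, expanded for 5 days in interleukin 2, and used on day 7 after 1 h of rest. All 4 groups of 3 biological replicates were kept in interleukin 2 at 20 ng/mL. The unstimulated group received no peptide, the TCR group received gp33 at 100 ng/mL for 4 h, the PI3Kdi group received the same peptide with IC87114 at 10 µM, an inhibitor of the phosphoinositide 3-kinase p110δ, and the MEKi group received the peptide with PD184252 at 2 µM, an inhibitor of the kinases MEK1 and MEK2 that activate ERK. These are cells of 1 receptor specificity expanded in culture. In such bulk RNA, fewer cells that express a gene and less RNA per cell cannot be told apart.

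Lysosomes break down proteins, lipids and sugars with hydrolases that work at acidic pH. The V-ATPase supplies the acid: its cytosolic V1 sector hydrolyses ATP and drives proton flow through the membrane-embedded Vo sector. The same pump is a docking platform for the nutrient-sensing kinase complex mTORC1, which phosphorylates TFEB and keeps it out of the nucleus; TFEB that reaches the nucleus binds E-box motifs near lysosomal and autophagy genes. In CTL the lytic granules that hold granzymes and perforin are secretory lysosomes, so cathepsins, LAMP proteins and the pump also belong to the killing machinery.

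All expression levels are FPKM, fragments normalised to exon length and library size, which can be compared between genes because they are per length. Differences are log2 changes of FPKM + 0.1 with their standard error (SE), tested with limma across all 11022 genes, and adjusted p is the Benjamini-Hochberg value over all of them. A gene passed the test at an adjusted p under 0.05, and was called when it also changed more than 2-fold. The estimated depth was 7860000 to 13290000 reads per sample, and 2 to 73 genes per sample were listed at 0. Replicates of a group correlated across genes with r from 0.992 to 0.995. All 7 CTL markers had a row and summed to 10107 to 16417 FPKM per sample. Of markers of other cells, none of 6 B cell genes, 0 of 5 erythroid genes and 1 of 11 macrophage genes had a row. That gene was Cd68, at 4.88 to 8.44 FPKM, while Adgre1, Csf1r and Lyz2 had none. Of 6 dendritic cell markers 2 had a row. Zbtb46 averaged 0.027 FPKM in unstimulated and 3.49 FPKM in TCR samples (limma log2 change 4.82, adjusted p = 4.72e-13). Itgax averaged 0.41 and 0.53 FPKM (0.31, adjusted p = 0.263). Together they summed to 0.32 to 0.51 FPKM in unstimulated and 3.70 to 4.28 FPKM in TCR samples, and to 2.49 to 2.61 FPKM with the PI3K and 3.12 to 3.77 FPKM with the MEK inhibitor. In the same order of groups the NK marker Klrb1c had 4.58 to 6.23, 1.63 to 1.88, 2.03 to 2.43 and 1.31 to 1.93 FPKM, and Cd4 had 0.44 to 0.99, 2.54 to 2.87, 1.96 to 3.65 and 0.28 to 0.66 FPKM. The part of these markers in the results was not tested.

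Levels of the 51 genes spanned more than 3 orders of magnitude. Averaged over the 12 samples, the most abundant were Laptm5, a lysosomal membrane protein of lymphocytes, at 688 FPKM, and the aspartyl protease cathepsin D (Ctsd) at 666 FPKM. They were followed by the autophagy receptor p62 (Sqstm1) at 234 FPKM and the ATG8 family member Gabarap at 145 FPKM. The lowest were cathepsin L (Ctsl) at 1.04 FPKM and the phosphoinositide-binding autophagy gene Wipi1 at 0.419 FPKM. Over the 4 group means, the ratio of the highest to the lowest was 14.6 for Atp6v0d2, 5.39 for Ctsl and 2.95 for Psap.

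TFEB and its relatives bind the palindrome CACGTG (an E-box), preferentially as the extended form TCACGTGA, so the start sites of the genes were searched on both strands for these letters. RefSeq windows of 300 bases (build GRCm38.p6, 250 bases before to 50 bases after the start) were available for 39 of the 51 genes. At least 1 E-box was present in 14 of these 39 genes (35.9%), against 12.2% of 8332 genes of the expression table and 8.09% of 27025 genes with a window. The extended form, each of which contains an E-box, was present in 7 of 39 (17.9%), against 2.44% and 1.125%. The FOXO-type motif GTAAACA was in 0 of the 39 genes, against 3.08% and 4.05% of genes. The stretches below, read 5′ to 3′ on the gene's strand, are those with an extended E-box or with several E-boxes. Stretches of the other E-box genes are not shown. E-boxes and extended E-boxes are in capitals.
Atp6v0b, chr4:117887312-117887395, minus strand: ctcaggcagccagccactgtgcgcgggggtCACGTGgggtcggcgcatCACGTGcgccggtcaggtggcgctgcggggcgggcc
Atp6v0d1, chr8:105566032-105566097, minus strand: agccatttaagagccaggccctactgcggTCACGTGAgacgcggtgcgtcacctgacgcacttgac
Atp6v0e, chr17:26676369-26676434, plus strand: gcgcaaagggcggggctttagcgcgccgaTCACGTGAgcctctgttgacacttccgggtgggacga
Atp6v1a, chr16:44139355-44139420, minus strand: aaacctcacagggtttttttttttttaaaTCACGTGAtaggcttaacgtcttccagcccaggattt
Ctsa, chr2:164833731-164833813, plus strand: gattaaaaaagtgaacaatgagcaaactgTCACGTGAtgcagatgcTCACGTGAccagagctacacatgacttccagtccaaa
Ctsd, chr7:142387890-142388077, minus strand: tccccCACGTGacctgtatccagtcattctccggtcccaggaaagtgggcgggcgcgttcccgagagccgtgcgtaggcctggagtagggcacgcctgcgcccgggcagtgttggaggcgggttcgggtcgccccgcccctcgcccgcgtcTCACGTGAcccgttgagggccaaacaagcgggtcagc
Gla, chrX:134601164-134601255, minus strand: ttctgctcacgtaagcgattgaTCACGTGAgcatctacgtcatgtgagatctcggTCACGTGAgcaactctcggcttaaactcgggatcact
Lamp1, chr8:13159070-13159181, plus strand: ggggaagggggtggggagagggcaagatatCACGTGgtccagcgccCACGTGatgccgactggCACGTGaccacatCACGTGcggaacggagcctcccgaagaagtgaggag
Mcoln1, chr8:3500418-3500509, plus strand: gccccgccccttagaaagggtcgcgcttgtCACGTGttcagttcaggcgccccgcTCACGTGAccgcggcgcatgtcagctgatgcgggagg

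**Figure D1:**
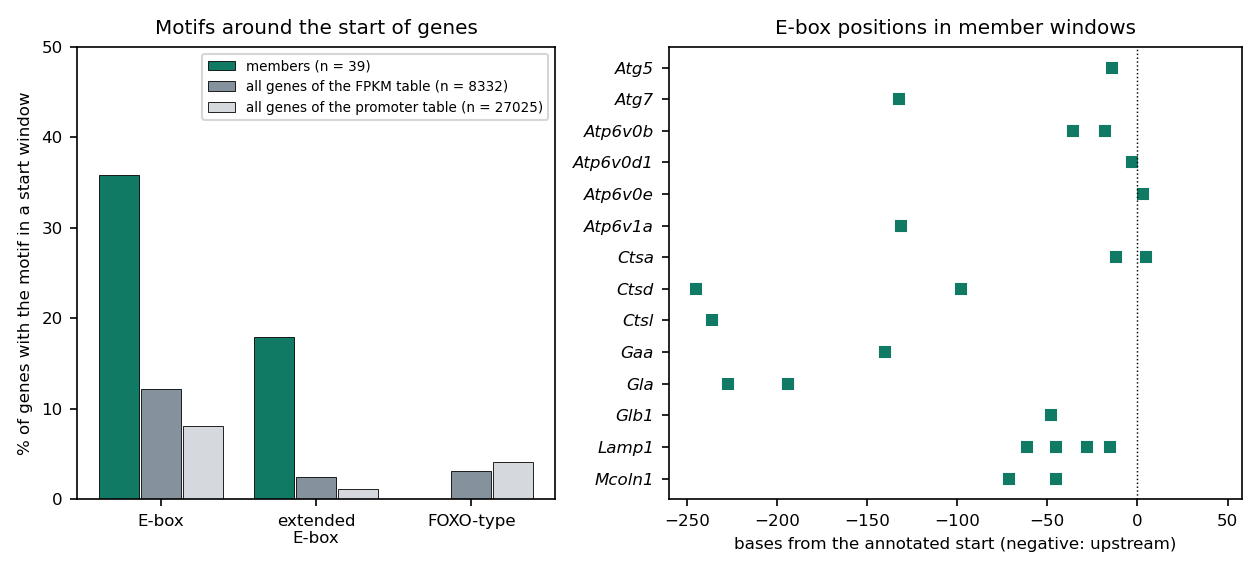
Left, the percentage of genes whose 300-base window around the start holds an E-box, an extended E-box or the FOXO-type motif, for the 39 lysosome, V-ATPase and autophagy genes with a window, 8332 genes of the expression table and 27025 genes with a window. Right, the distance in bases of each E-box from the start of its gene. The bars for E-boxes stand at 35.9%, 12.2% and 8.09%, and Lamp1 holds 4 E-boxes.

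The E-box genes did not move as a block. After TCR stimulation 3 of the 14 were higher (Atp6v0b, Atp6v0e and Ctsl) and 8 lower, among them Ctsd and Lamp1, with a median log2 change of -0.24. Among the 25 genes whose windows held no E-box, 12 were higher and 8 lower, with a median of -0.01. These splits are relative to the deposited scaling. On the TPM scale Atp6v0e of the 3 had a negative log2 change, as did Atp6v1f, Atp6ap1, Ctsc, Ctsz, Lamp2, Laptm4a and Gabarap of the 12. With the PI3K inhibitor 0 of the 14 were higher by limma and 3 lower than in TCR samples, against 4 and 4 of the 25. With the MEK inhibitor 5 of the 14 were higher and 1 lower than in TCR samples, against 4 and 5 of the 25. For reference, the limma test over all 11022 genes passed 33.6% as higher and 34.9% as lower in TCR against unstimulated samples. Against TCR samples, the shares were 12.7% and 12.8% with the PI3K inhibitor, and 18.9% and 18.2% with the MEK inhibitor. The counts by E-box are descriptions, and no test of the motif against expression was made.

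The comparison of TCR with unstimulated samples asks how 4 h of antigen receptor engagement alters the transcripts of this organelle in CTL that are already cycling in interleukin 2. The V-ATPase genes Atp6v0d2, Atp6v0b and Atp6v1e1, the autophagy genes Sqstm1 and Gabarapl1, and the cathepsin gene Ctsl rose more than 2-fold. Psap, a saposin precursor gene, and the cathepsin gene Ctss fell more than 2-fold. Of the 22 genes that passed as higher 9 were V-ATPase and 6 autophagy genes, and of the 18 that passed as lower 9 were soluble enzymes or saposin precursors, 5 V-ATPase, 3 membrane and 1 autophagy genes. Of the 51 genes 8 were called (15.7%), 6 higher and 2 lower, where 20.0% of all genes tested were called, 8.87% higher and 11.1% lower. By adjusted p alone 40 of 51 passed (78.4%), 22 higher and 18 lower, where 68.6% of all genes passed, 33.6% higher and 34.9% lower. The median log2 change was 0.07 for the 51 genes and -0.01 for all genes.

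This split depends on the scaling between samples. On the TPM scale, where each sample is rescaled to the same FPKM sum, the median log2 change of all genes moved to -0.42 in this comparison, and 8 of the 51 genes were higher and 35 lower. Quantile normalisation gave 14 higher and 21 lower. Of the 22 genes that passed as higher, 12 had a negative log2 change on the TPM scale (Atp6v0e, Atp6v1b2, Atp6v1f, Atp6v1g1, Atp6ap1, Ctsb, Ctsc, Ctsz, Lamp2, Laptm4a, Becn1 and Gabarap), and 1 with quantile normalisation (Gabarap). The TPM scale multiplies all FPKM of a sample by 1 factor, so positions relative to the median of all genes stay nearly the same by construction. They are not identical, because the pseudocount is added after the rescaling. With the deposited scaling 26 of the 51 genes lay above that median, and 27 on the TPM scale. Quantile normalisation can also move positions. It changed the median difference from all genes from 0.17 to 0.07 for the 16 V-ATPase genes and from 0.13 to 0.05 for the 12 autophagy genes. For the 7 enzymes and saposin precursors other than cathepsins it changed from -0.58 to -0.52. On the TPM scale 8 genes were called, of which 3 were shared with the 8 above: Atp6v0d2 higher, and Psap and Ctss lower. The other 5, Atp6v0a1, Ctsd, Glb1, Hexa and Lipa, were all lower. The remaining calls kept an adjusted p under 0.05 on that scale at log2 changes of 0.96 (Atp6v0b), 0.87 (Sqstm1), 0.95 (Ctsl), 0.66 (Atp6v1e1) and 0.63 (Gabarapl1).

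**Figure D2:**
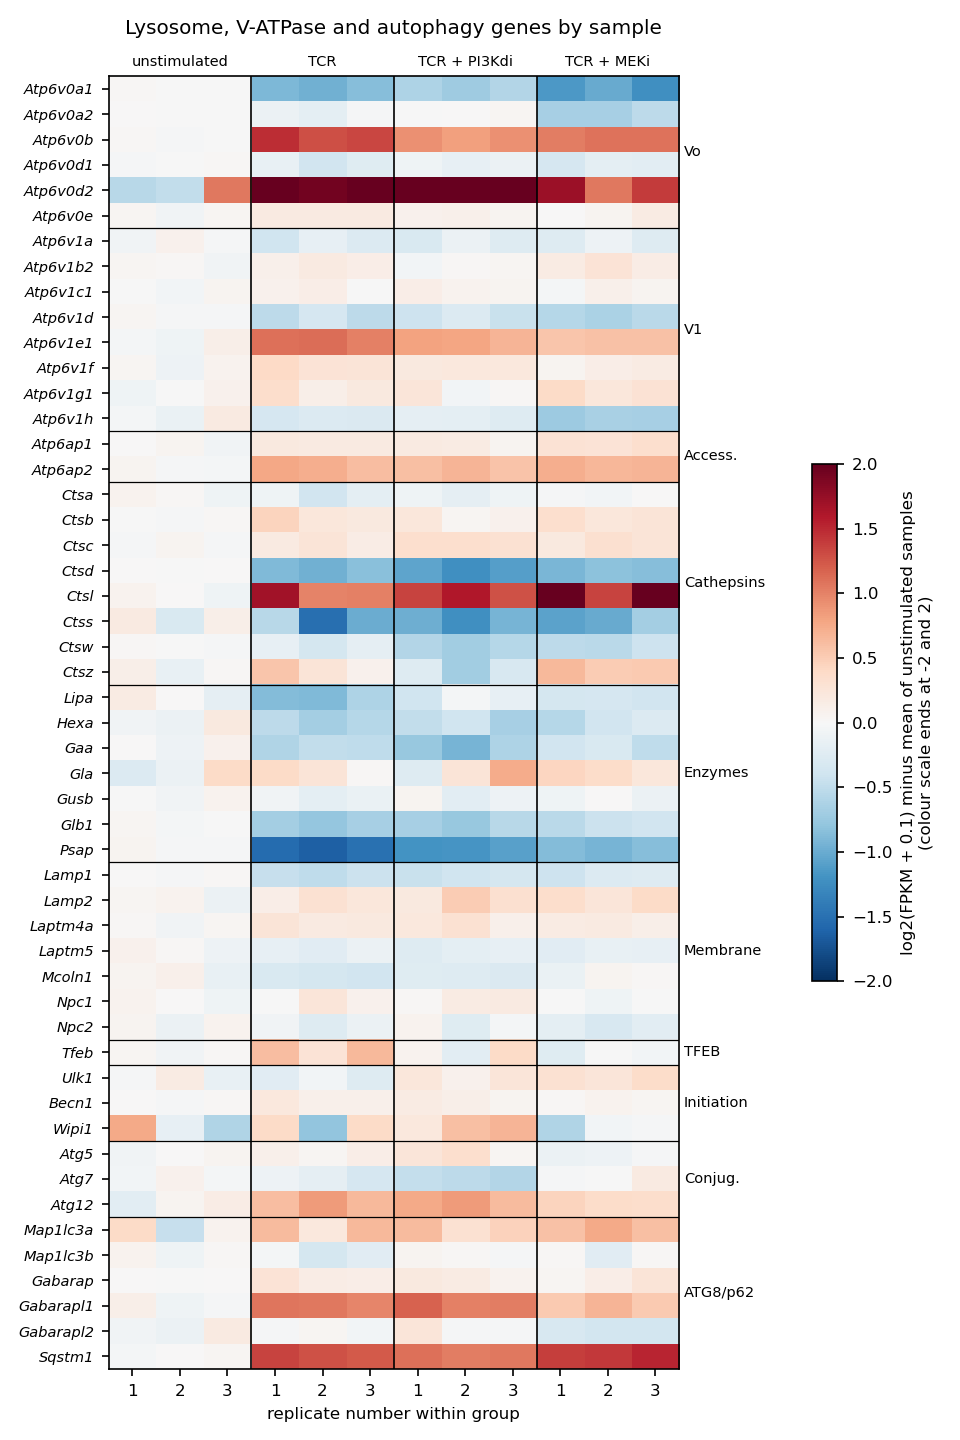
Expression of the 51 genes (rows, grouped by role) in the 12 samples (columns, grouped by condition), as the difference of log2(FPKM + 0.1) from the mean of the 3 unstimulated samples, with colours ending at -2 and 2. Atp6v0b, Atp6v1e1, Sqstm1 and Gabarapl1 are above the unstimulated mean in all 9 stimulated samples, and Psap and Ctsd are below it in all 9.

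Among the 14 genes of the pump's own sectors, some subunits rose and others fell. In the Vo sector, which forms the proton channel, 3 of 6 were higher (Atp6v0b, Atp6v0d2, Atp6v0e) and 2 lower (Atp6v0a1, Atp6v0d1). In the V1 sector, which holds the ATPase, 4 of 8 were higher (Atp6v1b2, Atp6v1e1, Atp6v1f, Atp6v1g1) and 3 lower (Atp6v1a, Atp6v1d, Atp6v1h). The accessory subunits Atp6ap1 and Atp6ap2, which assist assembly of the pump, were both higher. On the TPM scale the split of the 16 V-ATPase genes changed from 9 higher and 5 lower to 4 higher and 11 lower, and with quantile normalisation to 4 and 6. The summed FPKM of the 16 genes was 743 ± 18.0 in unstimulated and 924 ± 22.9 in TCR samples (mean ± SD, n = 3), but their share of all FPKM went the other way, from 0.1547% to 0.1445%.

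Atp6v0b (Entrez 114143, chr4:117884326-117887333) encodes a subunit of the membrane ring through which protons pass. Its FPKM was 56.8, 55.2 and 55.9 in the 3 unstimulated samples and 155, 137 and 142 in the 3 TCR samples. The lowest TCR sample was thus well above the highest unstimulated one, and the log2 change was 1.37 (SE 0.05, adjusted p = 1.11e-11). Atp6v1e1 (Entrez 11973, chr6:120794305-120822793), a stalk subunit that links the sectors, had 42.8, 41.6 and 47.8 FPKM without and 94.2, 95.5 and 88.7 FPKM with peptide. Again the groups did not overlap, at a log2 change of 1.07 (SE 0.06, adjusted p = 4.76e-10).

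Atp6v0d2 (Entrez 242341, chr4:19876841-19922605) encodes the tissue-restricted isoform of subunit d, best known from osteoclasts and macrophages. Its level was low, 0.14, 0.15 and 0.63 FPKM in unstimulated and 1.68, 1.25 and 1.51 FPKM in TCR samples. Unstimulated replicate 3 stood above the other two but below every TCR sample. The log2 change was 2.15 (SE 0.34, adjusted p = 4.62e-05), on an estimated 4.24 to 44.1 reads in these 6 samples, and 1.88 to 2.68 when any 1 library was left out. With a pseudocount of 1 the log2 change was 0.94, under the 2-fold limit, because the values are low. The ubiquitous isoform Atp6v0d1 went the other way, at a log2 change of -0.26 (adjusted p = 0.00207), from 37.8 to 31.7 FPKM on average.

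Smaller changes were seen for other pump genes, among them the most abundant, Atp6v1f and Atp6v0e. Atp6v1f, a small V1 subunit, had 125, 113 and 128 FPKM in unstimulated and 160.3, 148 and 146 FPKM in TCR samples, without overlap, a log2 change of 0.31 (SE 0.06, adjusted p = 0.000218). Atp6v0e, a small Vo subunit, had 119, 109.9 and 118 against 130.2, 131 and 131 FPKM (log2 change 0.18, adjusted p = 0.00636). For Atp6ap1 the values were 45.0, 46.3 and 42.6 against 50.9, 50.3 and 50.3 FPKM (log2 change 0.18, adjusted p = 0.00671). In all 3 genes every TCR sample was above every unstimulated sample, but on the TPM scale the log2 changes were -0.10 (Atp6v1f), -0.24 (Atp6v0e) and -0.23 (Atp6ap1), so their direction depends on the scaling. Atp6v0a2, an a subunit that anchors the pump to its membrane, had 49.3, 49.0 and 49.1 against 45.1, 42.7 and 48.2 FPKM and did not pass the test (log2 change -0.12, adjusted p = 0.0778); without TCR replicate 3 it passed (-0.16, adjusted p = 0.0302). Its relative Atp6v0a1 fell from 8.41 ± 0.104 to 4.45 ± 0.191 FPKM (n = 3), a log2 change of -0.90 (SE 0.09, adjusted p = 4.07e-07).

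The soluble enzymes moved mainly down. Of the 15 cathepsins, other hydrolases and saposin precursors 4 were higher and 9 lower, with a median log2 change of -0.23, and on the TPM scale 1 was higher and 11 lower. Their summed FPKM was 1489.5 ± 17.3 in unstimulated and 912 ± 39.4 in TCR samples (n = 3), and their share of all FPKM 0.3104% and 0.1426%. All 4 that rose were cathepsins (Ctsb, Ctsc, Ctsl and Ctsz), while Ctsa, Ctsd, Ctss and Ctsw fell. Of the 7 other enzymes and saposin precursors 0 rose by limma, also at an unadjusted p under 0.05, and 5 fell (Lipa, Hexa, Gaa, Psap and Glb1). The remaining Gla and Gusb had log2 changes of 0.22 (adjusted p = 0.395) and -0.13 (adjusted p = 0.122).

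Psap (Entrez 19156, chr10:60277627-60302597) encodes prosaposin, the precursor of the saposins that present sphingolipids to their hydrolases. It had 99.2, 93.5 and 93.3 FPKM in unstimulated and 32.6, 30.6 and 33.8 FPKM in TCR samples. The groups were far apart, and the log2 change of -1.56 (SE 0.05, adjusted p = 2.85e-12) was the most negative of the 51 genes. Lipa, the acid lipase that frees cholesterol and fatty acids, had 10.8, 9.78 and 8.59 FPKM before and 5.28, 5.22 and 6.32 FPKM after stimulation. No TCR sample reached the unstimulated range (log2 change -0.79, adjusted p = 1.82e-05). Smaller falls were seen for Hexa (-0.59, adjusted p = 0.000145), which degrades gangliosides, Gaa (-0.53, adjusted p = 0.000191), which degrades glycogen, and Glb1 (-0.71, adjusted p = 6.05e-07), the lysosomal beta-galactosidase.

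Ctsd accounts for most of the enzyme sum. Its FPKM was 1049.9, 1038 and 1051 in unstimulated and 568, 539 and 583 in TCR samples, a log2 change of -0.89 (adjusted p = 3.28e-09) with no overlap. Ctsw, a papain-like cathepsin of cytotoxic lymphocytes, had 147, 144 and 143 FPKM against 129, 113 and 129 FPKM, also without overlap (log2 change -0.23, adjusted p = 0.00322). Ctss (Entrez 13040, chr3:95526786-95556403), a cysteine protease best known for processing the invariant chain in antigen presentation, had 12.2, 8.71 and 11.7 FPKM against 7.26, 3.72 and 5.34 FPKM. Its values scattered more than those of Psap, although the groups did not overlap, and its log2 change of -1.02 (SE 0.20, adjusted p = 0.000317) fell inside the 2-fold limit without unstimulated replicate 1 (-0.93), unstimulated replicate 3 (-0.96) or TCR replicate 2 (-0.78).

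Of the 4 cathepsins that rose, Ctsb (log2 change 0.29, adjusted p = 0.00222), an endopeptidase, and Ctsc (0.19, adjusted p = 0.00569), which activates granzymes, changed by small amounts and reversed on the TPM scale. Ctsl (Entrez 13039, chr13:64359337-64370890), an endopeptidase, had 0.36, 0.34 and 0.31 FPKM in unstimulated and 1.30, 0.77 and 0.78 FPKM in TCR samples. Every TCR sample was above the unstimulated range and replicate 1 was the highest, for a log2 change of 1.23 (SE 0.27, adjusted p = 0.00087). Ctsz, a carboxypeptidase, had 35.2, 29.1 and 33.0 FPKM against 47.7, 38.5 and 34.3 FPKM. Here the groups overlapped, and the log2 change of 0.30 (SE 0.12, adjusted p = 0.0401) lost its adjusted p without TCR replicate 1 (0.213), TCR replicate 2 (0.0556), unstimulated replicate 2 (0.158) or unstimulated replicate 3 (0.0638), and was -0.11 on the TPM scale.

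**Figure D3:**
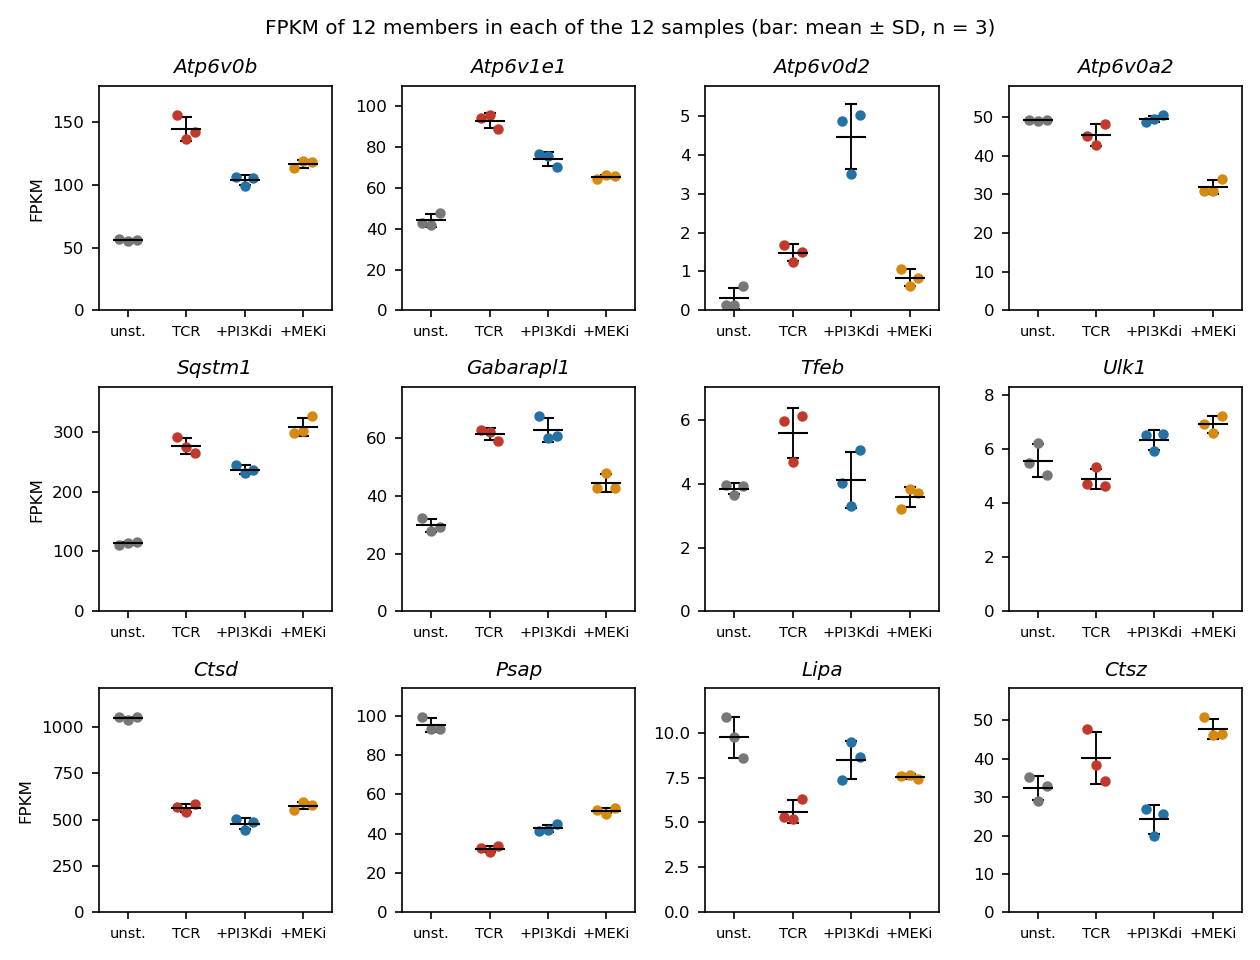
FPKM of 12 of the genes in each of the 12 samples (points, by group) with the mean and SD of the 3 samples of each group (bars), on linear axes that start at 0. The TCR samples of Sqstm1 lie between 265 and 291 FPKM, above the unstimulated samples at 111 to 116, and those of Psap lie at 30.6 to 33.8, below the unstimulated samples at 93.3 to 99.2.

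In the lysosomal membrane 2 of 7 genes were higher (Lamp2 and Laptm4a), 3 lower (Lamp1, Laptm5 and Mcoln1), and neither of the Niemann-Pick sterol exporters Npc1 and Npc2 passed. The mRNA of Lamp1, which encodes a membrane protein used as a marker of degranulation, fell from 75.8 ± 1.30 to 55.0 ± 1.55 FPKM (n = 3), a log2 change of -0.46 (adjusted p = 1.96e-06). Mcoln1, the calcium channel of the lysosome, had a log2 change of -0.35 (adjusted p = 0.00230). Laptm5, which in lymphocytes targets antigen receptor subunits to the lysosome, had 804, 765 and 700.1 FPKM against 676, 644 and 697 FPKM. Its groups were separated by under 3 FPKM, and the adjusted p of 0.0233 (log2 change -0.17) rose to 0.119, 0.0643 and 0.0874 without unstimulated replicate 1, unstimulated replicate 2 and TCR replicate 2.

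Tfeb itself was expressed at a low level and rose. It had 3.97, 3.66 and 3.94 FPKM in unstimulated and 5.98, 4.70 and 6.13 FPKM in TCR samples, without overlap (log2 change 0.52, SE 0.15, adjusted p = 0.00550). On the TPM scale the log2 change was 0.12 and did not pass.

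Of the 12 autophagy genes 6 were higher (Becn1, Atg12, Map1lc3a, Gabarap, Gabarapl1 and Sqstm1) and 1 lower (Map1lc3b), with a median log2 change of 0.12; the split was 3 and 7 on the TPM scale and 4 and 1 with quantile normalisation. The ATG8 proteins coat the autophagosome, and the receptor p62 (Sqstm1) binds them. Of these 6 genes 4 were higher and 1 lower, and only Sqstm1 and Gabarapl1 were called. On the TPM scale 2 of the 6 were higher and 3 lower, and with quantile normalisation 3 and 1. The kinase gene Ulk1, which starts autophagy, had 5.50, 6.22 and 5.03 FPKM against 4.73, 5.33 and 4.63 FPKM with overlap and did not pass (log2 change -0.18, adjusted p = 0.114; without unstimulated replicate 3, -0.25 and 0.0477). Becn1, a subunit of the class III PI3K complex, had 67.7, 66.3 and 68.5 FPKM against 78.5, 72.4 and 72.4 FPKM. The groups were separate (log2 change 0.14, adjusted p = 0.0211), though the adjusted p rose to 0.0681 without unstimulated replicate 2 and 0.0938 without TCR replicate 1, and the TPM scale gave -0.27. Of the conjugation genes, Atg5 had 20.2, 21.5 and 22.1 FPKM against 22.9, 21.9 and 23.3 FPKM, which overlapped (log2 change 0.09, adjusted p = 0.269), whereas its partner Atg12 rose from 10.2 ± 1.30 to 16.7 ± 1.51 FPKM (n = 3; log2 change 0.71, adjusted p = 1.18e-05).

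Sqstm1 (Entrez 18412, chr11:50199366-50210827) encodes p62, which carries ubiquitylated cargo into autophagosomes and is itself degraded there. It had 111, 114 and 116 FPKM in unstimulated and 291, 273 and 265 FPKM in TCR samples. The separation was wide and the log2 change was 1.28 (SE 0.05, adjusted p = 1.99e-11). Gabarapl1 (Entrez 57436, chr6:129533160-129542346), an ATG8 protein, had 32.1, 28.0 and 29.2 FPKM against 62.8, 62.2 and 58.8 FPKM. Its log2 change of 1.04 (SE 0.07, adjusted p = 3.92e-09) was 1.00 without unstimulated replicate 2, which took it just under the 2-fold limit. Other ATG8 genes moved less, Gabarap by 0.18 (adjusted p = 0.0122), Map1lc3a by 0.50 (adjusted p = 0.0286) and Map1lc3b by -0.21 (adjusted p = 0.0382).

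When any 1 library was left out of the comparison of TCR with unstimulated samples, 10 of the 40 genes that passed lost their adjusted p in at least 1 case (Atp6v1b2, Atp6v1g1, Becn1, Ctsa, Ctsz, Gabarap, Lamp2, Laptm5, Map1lc3a and Map1lc3b, at 0.0548 to 0.213), and 4 others gained it (Atg7, Atp6v0a2, Npc2 and Ulk1). Some exons are shared with neighbouring genes in GENCODE M21, whereas the authors counted reads with a RefSeq annotation. The use of strand in counting is not stated, so such reads cannot be assigned. For Ctsd the overlap with Gm49369 (808 bases) lies on the same strand, so strand would not separate it. The share of 100-base stretches also found in a transcript of another gene was 30.7% for Becn1 (Cntd1), 30.2% for Ctsd (Gm49369), 23.5% for Ctsl (Gm47123), 18.0% for Gabarapl1 (1700101I11Rik), 13.7% for Sqstm1 (Mrnip), 6.8% for Atp6v0a2 (4930404A12Rik) and 5.8% for Atp6v0b (Gm12841).

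The PI3Kdi group was compared with the TCR group to see which of these transcripts depended on p110δ activity during stimulation. The inhibitor raised Atp6v0d2 3.02-fold and lowered Ctsz, Atp6v0b, Ctsw and Atp6v1e1 by less than 2-fold, and Lipa, Psap and Ulk1 were higher. Only Atp6v0d2 of the 51 genes was called, where 1.88% of all genes tested were called, 0.499% higher and 1.38% lower. By adjusted p 13 of 51 passed (25.5%), 5 higher and 8 lower, where 25.6% of all genes passed, 12.7% higher and 12.8% lower. With the replicate block 14 passed, with Ctsb (0.0392) and Map1lc3b (0.0191) added and Atp6v0a1 lost. The median log2 change was 0.03 for the 51 genes and 0.02 for all genes. On the TPM scale, which moved the median of all genes to 0.20, 26 genes were higher and 3 lower, and with quantile normalisation 8 were higher and 7 lower. With the deposited scaling 29 of 51 lay above the median of all genes, against 33 of 51 with quantile normalisation.

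Atp6v0d2 was already higher in TCR than in unstimulated samples and rose further with the PI3K inhibitor. It had 4.87, 3.51 and 5.01 FPKM in the PI3Kdi samples against 1.68, 1.25 and 1.51 FPKM in the TCR samples. The lowest PI3Kdi sample was above the highest TCR sample, and the log2 change was 1.52 (adjusted p = 0.00435). Its partner subunits Atp6v0b and Atp6v1e1 moved in the opposite direction: Atp6v0b had 106, 98.9 and 106 FPKM with the inhibitor (log2 change -0.48, adjusted p = 2.44e-05) and Atp6v1e1 had 76.6, 75.7 and 70.4 FPKM (log2 change -0.32, adjusted p = 0.00116). In both, all PI3Kdi samples lay below all TCR samples and above all unstimulated ones. Of the 16 V-ATPase genes 2 were higher, Atp6v0d2 and Atp6v0a1, and 2 lower. On the TPM scale 7 were higher and 1 lower, with 0 of the 8 V1 genes lower, and with quantile normalisation 3 were higher and 2 lower. Atp6v0a1 (log2 change 0.26, adjusted p = 0.0432) no longer passed when any 1 of the 6 libraries was left out, at 0.0517 to 0.1302, or with the replicate block (0.0504).

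Of the 8 cathepsins 3 were lower with the PI3K inhibitor and 0 higher by limma (1 higher at an unadjusted p under 0.05). This split depends on the scaling: 2 were lower and 2 higher on the TPM scale, and 2 lower and 1 higher with quantile normalisation. Ctsz had 27.0, 20.0 and 25.7 FPKM, below the TCR samples at 34.3 to 47.7 FPKM and below the unstimulated samples at 29.1 to 35.2 FPKM. Its log2 change from TCR was -0.72 (adjusted p = 0.000583). Ctsw had 97.0, 89.4 and 97.1 FPKM (log2 change -0.39, adjusted p = 0.000339), also under both other groups, and Ctsd had 501, 445 and 490 FPKM (log2 change -0.24, adjusted p = 0.00803), below TCR samples that were themselves below the unstimulated ones. The log2 changes of Ctss and Ctsl were -0.03 (adjusted p = 0.933) and 0.18 (adjusted p = 0.670).

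In contrast Psap and Lipa were higher with the PI3K inhibitor than in TCR samples. Psap had 41.6, 42.0 and 44.9 FPKM (log2 change 0.41, adjusted p = 0.000111), between the TCR samples at 30.6 to 33.8 and the unstimulated samples at 93.3 to 99.2 FPKM. Lipa had 7.34, 9.45 and 8.62 FPKM (log2 change 0.58, adjusted p = 0.00162), all above the TCR samples. Of the lysosomal membrane genes 0 of 7 passed the limma test with the deposited scaling, and 0 of 7 had an unadjusted p under 0.05. On the TPM scale 5 of the 7 passed as higher and 0 as lower, and with quantile normalisation 0 and 0.

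For autophagy, Sqstm1 had 244, 230.2 and 235 FPKM, below every TCR sample (log2 change -0.22, adjusted p = 0.00657), though the log2 change was -0.04 on the TPM scale and -0.06 with quantile normalisation. Gabarapl1 had 67.5, 60.0 and 60.6 FPKM and overlapped the TCR samples (log2 change 0.03, adjusted p = 0.774). Ulk1 had 6.52, 5.93 and 6.57 FPKM, above every TCR sample (log2 change 0.37, adjusted p = 0.0139), and Tfeb had 4.03, 3.32 and 5.07 FPKM, which overlapped them (log2 change -0.44, adjusted p = 0.0392). The Ulk1 value rose to 0.0538 without TCR replicate 3 and 0.0523 without PI3Kdi replicate 3. For Tfeb it rose to 0.123, 0.129, 0.0748 and 0.173 without TCR replicate 1, TCR replicate 3, PI3Kdi replicate 1 and PI3Kdi replicate 2. Atg7, the activating enzyme of ATG8 conjugation, had a log2 change of -0.33 (adjusted p = 0.0224), which 4 of the 6 leave-one-out fits took above the threshold, to 0.0510 to 0.0869.

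**Figure D4:**
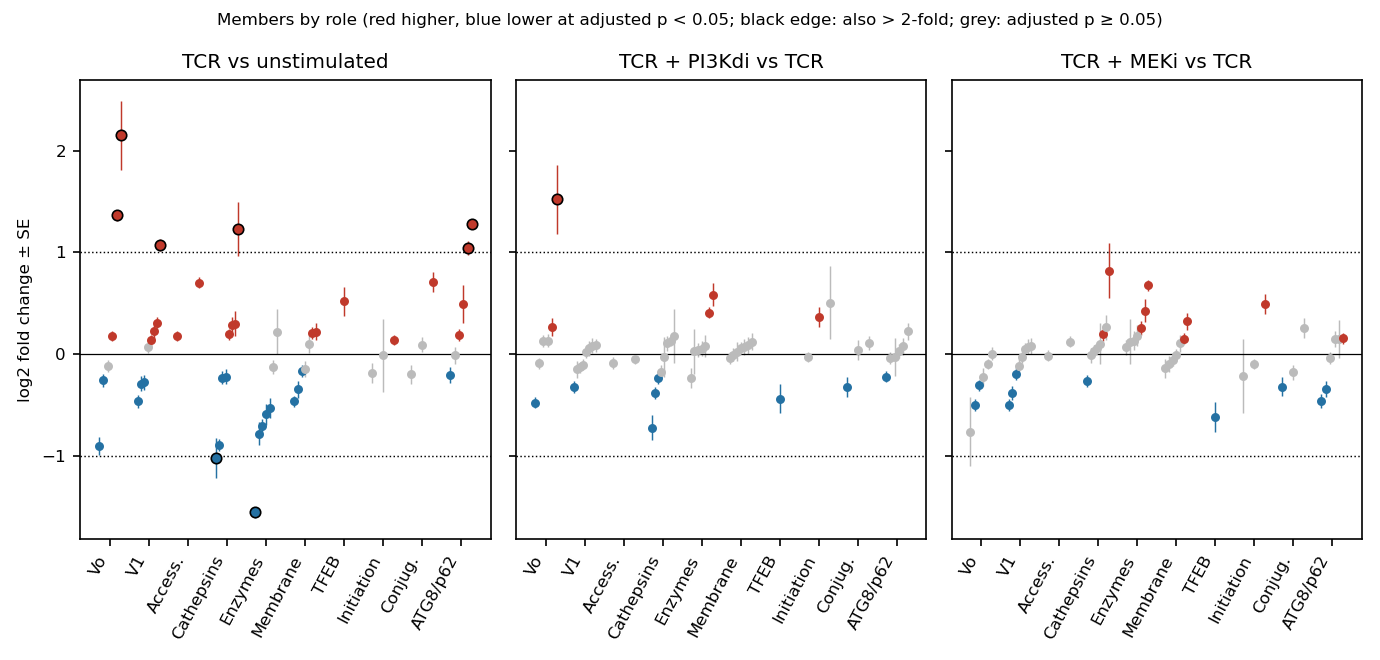
Log2 change of FPKM + 0.1 with its SE for each of the 51 genes, grouped by role, for TCR against unstimulated, PI3Kdi against TCR and MEKi against TCR (panels). Red and blue mark an adjusted p under 0.05 for higher and lower, and a black edge marks a change of more than 2-fold as well. In the first panel the enzymes and saposin precursors other than cathepsins lie at or below 0 except Gla, and in the third panel all 7 lie above 0.

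The MEKi group was compared with the TCR group to see which transcripts depended on MEK signalling during stimulation. Among the genes that passed, the largest falls were those of Tfeb, Atp6v0a2, Atp6v1e1 and Gabarapl1, and the largest rises those of Ctsl, Psap, Ulk1 and Lipa. Atp6v0d2 had a more negative log2 change but passed only with the replicate block. None of the 51 genes was called by limma (0 of 51), where 3.49% of all genes tested were called (0.980% higher and 2.51% lower), and 0 of 51 at an unadjusted p under 0.05 with the same 2-fold limit, although Ctsl was called on the TPM scale and without TCR replicate 1 or MEKi replicate 2. By adjusted p 19 of 51 passed (37.3%), 9 higher and 10 lower, where 37.1% of all genes passed, 18.9% higher and 18.2% lower. The medians were 0.00 for the 51 genes and 0.01 for all genes. The TPM scale moved the median of all genes to 0.27 and gave 31 higher and 4 lower, and quantile normalisation gave 12 and 9. Above the median of all genes lay 25 of 51 with the deposited scaling and 31 of 51 with quantile normalisation.

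Of the 16 V-ATPase genes 5 were lower (Atp6v0a2, Atp6v0b, Atp6v1e1, Atp6v1f and Atp6v1h) and 0 higher by limma (1 higher at an unadjusted p under 0.05), with a median log2 change of -0.11. On the TPM scale the split was 8 higher and 2 lower and with quantile normalisation 1 and 5, and 4 of 16 lay above the median of all genes with the deposited scaling against 7 of 16 with quantile normalisation. Atp6v0a2 had 31.0, 31.0 and 34.1 FPKM with the MEK inhibitor against 45.1, 42.7 and 48.2 in TCR samples and 48.9 to 49.3 FPKM in unstimulated samples. It was thus below every sample of the other 3 groups (log2 change from TCR -0.50, adjusted p = 1.10e-05). Atp6v1e1 had 64.5, 66.1 and 66.0 FPKM (log2 change -0.50, adjusted p = 1.58e-05), and Atp6v0b had 113, 119 and 119 FPKM (log2 change -0.31, adjusted p = 0.000505), each between the TCR and the unstimulated samples. On the TPM scale 2 of the 6 Vo genes were higher and 1 lower, so the falls of Atp6v0a2 and Atp6v0b did not both pass there. Atp6v1f had 126, 134 and 137 FPKM, below the TCR samples (log2 change -0.20, adjusted p = 0.0157; 0.0671 without TCR replicate 1 and 0.0709 without MEKi replicate 1), and 0.07 on the TPM scale. Atp6v0d2 had 1.06, 0.63 and 0.83 FPKM, below every TCR sample, with a log2 change of -0.77 (adjusted p = 0.0901, and 0.04835 with the replicate block).

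The enzymes and saposin precursors other than cathepsins had log2 changes above 0 in 7 of 7 cases, with a median of 0.18, and 3 passed (Psap, Lipa and Glb1). Psap had 52.0, 50.2 and 52.9 FPKM with the MEK inhibitor, above every TCR sample and still far below the unstimulated ones (log2 change from TCR 0.68, adjusted p = 3.65e-07). Lipa had 7.60, 7.63 and 7.40 FPKM (log2 change 0.43, adjusted p = 0.00824), again between the other groups. Glb1 had a log2 change of 0.26 (adjusted p = 0.0134), which rose to 0.0530 and 0.0605 without TCR replicate 2 and MEKi replicate 3.

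Ctsl had 2.38, 1.01 and 2.05 FPKM with the MEK inhibitor against 1.30, 0.77 and 0.78 in TCR samples. MEKi replicate 2 lay within the TCR range and the other 2 samples above it (log2 change 0.82, adjusted p = 0.0266). The adjusted p rose to 0.0907 without TCR replicate 2, 0.0877 without TCR replicate 3, 0.126 without MEKi replicate 1 and 0.101 without MEKi replicate 3. Ctsw had 100.4, 99.2 and 109 FPKM, below every TCR sample (log2 change -0.27, adjusted p = 0.00323, and 0.00 on the TPM scale). Ctsd, at 553, 593 and 578 FPKM, overlapped the TCR samples (log2 change 0.03, adjusted p = 0.727). Ctsz, at 50.8, 46.1 and 46.6 FPKM, also overlapped them through TCR replicate 1 (log2 change 0.26, adjusted p = 0.103; 0.0276 with the replicate block and 0.0192 without TCR replicate 1).

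In the membrane group Lamp1 (log2 change 0.15, adjusted p = 0.0391) and Mcoln1 (0.32, adjusted p = 0.00878) were higher with the MEK inhibitor. The Lamp1 value was lost without any of 5 of the 6 libraries, at 0.0511 to 0.1529. Tfeb had 3.23, 3.84 and 3.71 FPKM with the MEK inhibitor, below every TCR sample (log2 change -0.62, adjusted p = 0.00412) and near the unstimulated samples at 3.66 to 3.97 FPKM. Among autophagy genes Ulk1 and Sqstm1 were higher and Atg12, Gabarapl1 and Gabarapl2 lower. Ulk1 had 6.93, 6.60 and 7.22 FPKM, above every TCR and unstimulated sample (log2 change 0.49, adjusted p = 0.00144). Gabarapl1 had 42.9, 47.9 and 42.6 FPKM, between the TCR and unstimulated samples (log2 change -0.46, adjusted p = 0.000125). Sqstm1 had 297, 301 and 326 FPKM, just above the TCR samples at 265 to 291 FPKM (log2 change 0.16, adjusted p = 0.0325); the adjusted p was 0.0779, 0.126 and 0.154 without TCR replicate 2, TCR replicate 3 and MEKi replicate 3. Atg12 had a log2 change of -0.32 (adjusted p = 0.0182; 0.0827 without TCR replicate 2 and 0.0603 without MEKi replicate 3).

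All 3 comparisons use the same TCR samples, so a chance deviation of those samples enters each of them, with opposite sign in the first and the inhibitor comparisons. Side by side, the log2 changes of Atp6v0b were 1.37 for TCR against unstimulated, -0.48 for PI3Kdi against TCR and -0.31 for MEKi against TCR. In the same order they were 1.28, -0.22 and 0.16 for Sqstm1, 1.04, 0.03 and -0.46 for Gabarapl1, and -1.56, 0.41 and 0.68 for Psap.

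The MEKi and PI3Kdi groups were then compared directly, at the single dose and time used for each. Atp6v0d2 was the 1 gene of 51 called, lower with the MEK inhibitor, where 3.09% of all genes tested were called, 1.39% higher and 1.71% lower. Its FPKM was 1.06, 0.63 and 0.83 with the MEK inhibitor and 4.87, 3.51 and 5.01 with the PI3K inhibitor, far apart in every replicate (log2 change -2.29, adjusted p = 0.000140). By adjusted p 20 of 51 genes passed (39.2%), 10 higher and 10 lower with the MEK inhibitor, where 28.9% of all genes passed, 14.5% higher and 14.4% lower; 15 were higher and 8 lower on the TPM scale, and 11 and 10 with quantile normalisation. The medians were 0.02 for the 51 genes and -0.01 for all genes.

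The 10 genes lower with the MEK inhibitor were 6 V-ATPase genes, Atg5, Atg12, Gabarapl1 and Gabarapl2, and the 10 higher were 4 V-ATPase genes, Ctsd, Ctsz, Psap, Gaa, Atg7 and Sqstm1. Ctsz had 50.8, 46.1 and 46.6 FPKM with the MEK inhibitor and 27.0, 20.0 and 25.7 FPKM with the PI3K inhibitor (log2 change 0.99, adjusted p = 2.69e-05). That is just under the 2-fold limit, and Ctsz was called on the TPM scale and in 4 of the 6 leave-one-out fits. Atg7 (0.58, adjusted p = 0.000385), Sqstm1 (0.38, adjusted p = 8.61e-05), Psap (0.27, adjusted p = 0.00170) and Ctsd (0.27, adjusted p = 0.00314) were higher with the MEK inhibitor and did not overlap between groups. Lower with the MEK inhibitor, and likewise without overlap, were Atp6v0a2 (-0.63, adjusted p = 1.45e-06), Gabarapl1 (-0.49, adjusted p = 7.99e-05), Atp6v0a1 (-0.49, adjusted p = 0.000821), Atp6v1h (-0.46, adjusted p = 0.000259), Gabarapl2 (-0.42, adjusted p = 0.00135) and Atg5 (-0.29, adjusted p = 0.00797). Leaving out any 1 library took 8 of the 20 genes above the threshold in at least 1 case (Atg12, Atp6ap1, Atp6v0b, Atp6v1b2, Atp6v1d, Atp6v1e1, Atp6v1g1 and Gaa, at 0.0534 to 0.1705). With the replicate block 24 genes passed, Ctsb, Glb1, Mcoln1 and Npc2 being added at 0.0206 to 0.0494.

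Other genes of the pathway, listed by role, were counted for context. After TCR stimulation 7 of 45 further lysosomal genes were higher and 27 lower, with a median log2 change of -0.46. It was -0.59 for the 7 enzymes and saposin precursors described above. With the MEK inhibitor 20 of the 45 were higher than in TCR samples and 3 lower (median 0.21), and with the PI3K inhibitor 11 and 6. Peptide alone left 4 of 10 further V-ATPase genes higher and 3 lower. Of 40 further autophagy genes 8 were higher and 16 lower. Of 13 genes of the MiT/TFE factors, the Rag GTPases that recruit mTORC1 and their Ragulator and folliculin partners, 6 were higher and 5 lower. These directions are relative to the deposited scaling, as for the 51 genes.

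**Figure D5:**
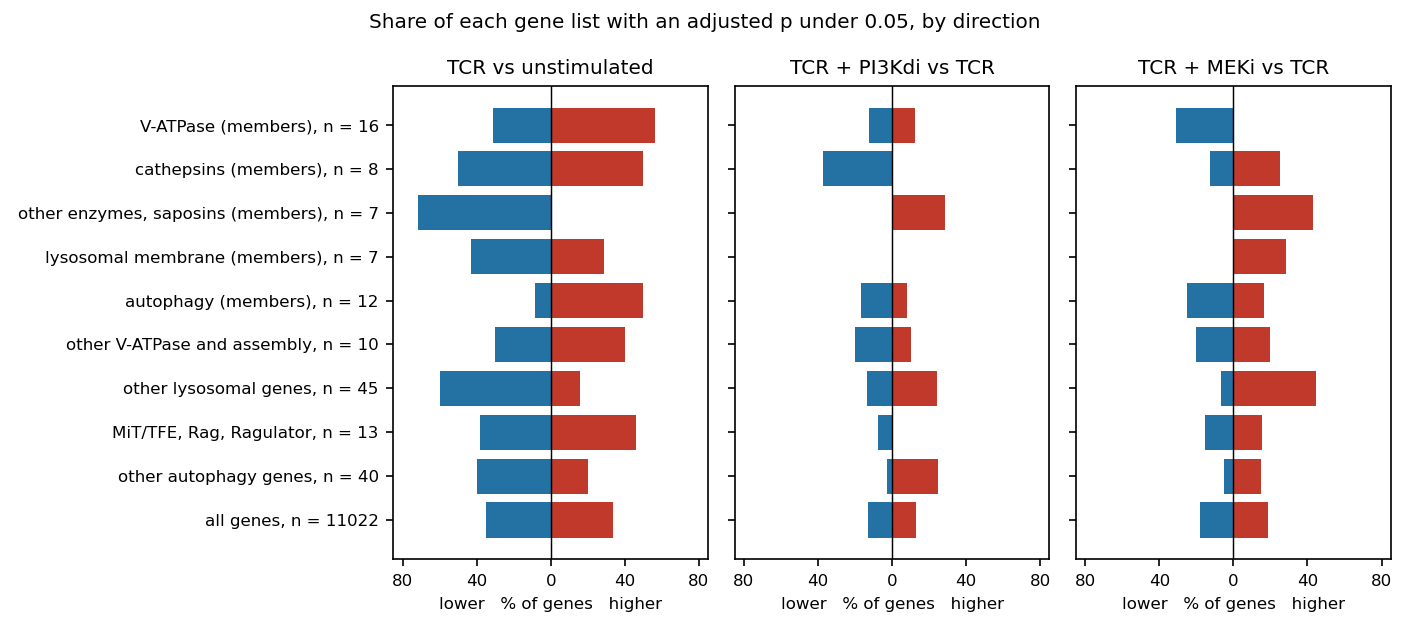
Percentage of each gene list with an adjusted p under 0.05, higher to the right and lower to the left, for the role groups, the further genes of the pathway and all 11022 genes, in the same 3 comparisons. In the first panel 33.6% of all genes are higher and 34.9% lower, while 5 of the 7 other enzymes and saposin precursors are lower and none higher.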

How the data were processed

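RNA of 12 CTL samples (4 groups of 3 biological replicates, grouped by their labels) was sequenced by the authors in a single lane with paired reads of 100 bases from a stranded mRNA kit. The authors aligned reads with STAR 2.4.2a to mm10, counted them per gene with Subread 1.5.0, filtered low counts with filterByExpr, normalised by TMM in edgeR, and computed the deposited FPKM values with the edgeR RPKM function and summed non-overlapping exon length; replicates were not pooled. Whether counting used the strand is not given in the sources used here. The study's own tests were made with limma-voom on counts, which were not used here.

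From the FPKM, log2(FPKM + 0.1) of all 11022 genes in all 12 samples was fitted with 1 mean per group in limma 3.58.1 (R 4.3.3; lmFit, contrasts.fit, eBayes with trend), and p-values were adjusted by Benjamini-Hochberg over all genes in each of 4 contrasts. The pseudocount shrinks fold changes of low genes. The genes and lists were chosen with earlier results of these data known. Values per sample are given for genes called in any contrast, the highest-expressed gene of each role, Tfeb, Sqstm1, and the 4 largest rises and falls that passed with each inhibitor; genes outside the list could be named where called. Python 3.11.15, NumPy 2.4.6 and pandas 2.3.3 were used. Gene positions are from GENCODE M21 on GRCm38, start-site windows from RefSeq on GRCm38.p6. The fit was run on simulated data with known changes. These held no pairing of samples and no shift in scaling, so the run does not bear on either.

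Depth was estimated from the steps of low FPKM values. Whole reads were not recovered: of the 96 to 172 low values examined in a sample, 43.5% to 59.2% came within 0.15 of an integer read number, against 30% expected of random values. Depth estimates cover counting error only. Whether equal replicate numbers mean the same mouse is not stated. Deviations from group means over 9899 genes correlated between equal numbers at 0.239 to 0.451 for PI3Kdi and TCR, 0.122 to 0.182 for MEKi and TCR and 0.137 to 0.149 for MEKi and PI3Kdi, so in these comparisons the numbers pair the samples and a blocked fit is given where it moved an adjusted p across 0.05.

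Alternatives were pseudocounts of 1 and 0.01, a mean FPKM of at least 1, quantile normalisation, the TPM scale, the compared groups alone, a replicate block, no trend, limma treat at 2-fold and leaving out each replicate. A comparison of V-ATPase protein isoforms was planned and not run, as no protein sequences were used.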

Additional observations from a re-analysis of the deposited data

Results flagged for a closer look

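Atp6v0d2, the tissue-restricted subunit d of the V-ATPase, differed between the inhibitors under the same contrast with the TCR samples. Its log2 change from TCR was 1.52 for PI3Kdi and -0.77 for MEKi, and the difference between them, tested as the MEKi against PI3Kdi contrast in limma, was -2.29 (adjusted p = 0.000140). All 3 PI3Kdi samples were above the TCR samples and all 3 MEKi samples below them, and both effects are taken against the same TCR samples.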

How the results depend on the processing

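The counts of called genes in TCR against unstimulated samples were 8 in the fits with a pseudocount of 0.01, a mean FPKM of at least 1, the compared groups alone or no trend, 5 with a pseudocount of 1, 6 with quantile normalisation and 4 with treat (Atp6v0d2, Psap, Atp6v0b and Sqstm1). Against TCR, treat left 0 genes called with the PI3K inhibitor and between the inhibitors, and the TPM scale gave 1 called and 35 passing with the MEK inhibitor, 29 passing with the PI3K inhibitor and 2 called between the inhibitors. Leaving out 1 replicate gave 7 to 8 called and 34 to 37 passing for TCR, 1 called and 10 to 13 passing for the PI3K inhibitor, 0 to 1 called and 13 to 20 passing for the MEK inhibitor, and 1 to 2 called and 15 to 19 passing between the inhibitors.

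Of the 51 genes 16, 13, 14 and 7 changed sign on the TPM scale in the 4 comparisons, all of them small changes. Among the genes with values per sample, those for TCR against unstimulated samples were Atp6v0e (-0.24), Atp6v1f (-0.10), Atp6ap1 (-0.23), Becn1 (-0.27), Atg5 (-0.32) and Ctsz (-0.11). With the PI3K inhibitor they included Becn1 (0.15) and Atp6ap1. With the MEK inhibitor they included Atp6v0e (0.16), Atp6v1f (0.067), Laptm5 (0.25), Becn1 (0.17) and Atg5 (0.08). Laptm5 also reversed with quantile normalisation (0.28). The rescaling itself moved the median log2 change of all genes to -0.42, 0.20, 0.27 and 0.07 in the 4 comparisons.

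With the replicate block the counts of called genes were 8, 1, 0 and 1 and those passing 41, 14, 21 and 24, in the order of the report. Among stimulated groups the blocked fit moved the adjusted p across 0.05 for Atp6v0d2 and Ctsz (MEKi against TCR), Atp6v0a1, and Ctsb and Map1lc3b, which passed with the PI3K inhibitor (0.0392 and 0.0191), besides those named for the direct comparison; it did so for no other gene. For TCR against unstimulated samples the pairing correlations were 0.105, 0.153 and 0.004, each sample correlated best with its own number, and the block added Npc2 (0.0187). Depth limits Atp6v0d2, Wipi1 and Map1lc3a most, at an estimated 4.24, 7.28 and 20.3 reads in their lowest samples.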

Other observations

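Among lysosomal genes outside the list, Cd63, a tetraspanin of lysosomes and lytic granules, had 0.43, 0.37 and 0.36 FPKM in unstimulated and 19.3, 16.1 and 16.6 FPKM in TCR samples, a log2 change of 5.16 (adjusted p = 1.73e-12). It had 9.87, 6.16 and 7.71 FPKM with the PI3K inhibitor (log2 change from TCR -1.14, adjusted p = 0.000258) and 0.98, 1.11 and 0.74 FPKM with the MEK inhibitor (-4.07, adjusted p = 1.43e-09). All 3 TCR samples stood above every inhibitor-treated sample, and the MEKi samples above every unstimulated one. Rragd, a Rag GTPase that recruits mTORC1 to lysosomes, had 1.62, 1.58 and 1.43 FPKM in TCR samples, 0.71, 0.86 and 0.50 FPKM with the PI3K inhibitor (log2 change -1.08, adjusted p = 0.00149) and 0.30, 0.29 and 0.24 FPKM with the MEK inhibitor (-2.13, adjusted p = 2.15e-06). In unstimulated samples it had 0.04 to 0.06 FPKM, near 2 reads, so no fold against them is given.

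M6pr, a receptor that delivers hydrolases to the lysosome, had 119, 127 and 126 FPKM in unstimulated and 358, 377 and 357 FPKM in TCR samples, a log2 change of 1.55 (adjusted p = 7.94e-13), and 289, 303 and 286 FPKM with the PI3K inhibitor (-0.32, adjusted p = 0.000311). Hydrolase and cofactor genes outside the list fell more than 2-fold after TCR stimulation, among them Grn (progranulin, -1.76), Sgsh (-1.77), Naglu (-1.30), Arsb (-1.26), Galns (-1.21) and Arsa (-1.14), which degrade glycosaminoglycans or sulfated lipids apart from Grn, and Smpd1 (-1.56), the acid sphingomyelinase. Grn was higher with the MEK inhibitor than in TCR samples (log2 change 0.77, adjusted p = 0.000319).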
